A study of Mus musculus with 15 samples.

Results

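The AP-1 and EGR immediate early genes are 10 genes, Fos, Fosb, Fosl1, Fosl2, Jun, Junb, Jund, Egr1, Egr2 and Atf3, chosen by name. Their 11 probes were those that the authors' table lists under these symbols, among the 20855 gene probes of that table, with 1 probe per gene except Fosl2, which had 2. Only valid probes entered the tests, which means probes that the scanner software marked as well above background on 4 or more of the 5 arrays of every stage. That held for 17324 probes and for 10 of the 11 probes of the set, which cover 9 of the 10 genes. The Fosl1 probe did not pass.

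Cumulus cells, the somatic layer around the oocyte in the mammalian follicle, were collected from B6CBAF1/J mice at 3 stages, with 5 arrays each. NC1 cells were those of juvenile mice aged 3 weeks, whose complexes were unexpanded and whose prophase I oocytes are labelled developmentally incompetent. C1 cells were taken in the same way from adults aged 8 weeks, with prophase I oocytes labelled competent. C2 cells also came from adults aged 8 weeks, but from expanded complexes that were flushed out of the oviduct once superovulation had been induced, with metaphase II oocytes labelled fully competent. Superovulation used the gonadotropins PMSG and then human chorionic gonadotropin (hCG), and the C2 cells were collected hours after the hCG. Each array holds RNA from a pool of several mice of 1 group. NC1 and C1 cells were freed by pipetting and C2 cells by a short hyaluronidase digestion. Age therefore cannot be told apart from stage at the first step, nor can gonadotropins, site of collection and enzyme at the second.

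AP-1 is a dimer of a FOS protein with a JUN protein, or of 2 JUN proteins, which binds DNA through a basic leucine zipper (bZIP), and ATF3 is a bZIP protein of the related ATF family that can pair with JUN proteins. EGR1 and EGR2 are zinc-finger transcription factors, held in check by the corepressors NAB1 and NAB2. Most of these genes are transcribed within minutes of a stimulus, with no need for new protein, and their mRNAs are short-lived. In the preovulatory follicle, the luteinizing hormone surge and the EGF-like factors that follow it act on granulosa and cumulus cells through cAMP and MAP kinase cascades, which are known routes to these genes, and tissue dissociation is a known trigger of them as well.

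The sequences around the starts of 3 of the genes are printed because Egr2 and Fos moved in opposite directions at the last step and Jun is the main partner of Fos. Of the 10 genes, 8 had at least 1 window in the RefSeq promoter table of build GRCm38.p6, which gives 250 bases before and 50 bases after each annotated start, 12 windows in all. Fosl1 and Egr1 were not among them. Capitals mark exact matches, on either strand, to the cAMP response element (TGACGTCA), the AP-1 site (TGAGTCA or its complement TGACTCA), the EGR site (GCGTGGGCG), the CArG box bound by serum response factor, the element of the Jun promoter (TGACATCA) and TATAAA. No marked motifs overlapped in these windows. Egr2 has 2 windows here because its annotated starts differ, and the windows are as follows.
Egr2, chr10:67537316-67537615, plus strand: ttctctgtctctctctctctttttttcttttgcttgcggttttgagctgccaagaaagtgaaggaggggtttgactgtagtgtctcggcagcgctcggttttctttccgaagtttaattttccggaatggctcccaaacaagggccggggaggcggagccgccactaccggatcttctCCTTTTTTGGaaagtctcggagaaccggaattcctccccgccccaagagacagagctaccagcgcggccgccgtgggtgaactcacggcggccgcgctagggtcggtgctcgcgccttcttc
Egr2, chr10:67537619-67537918, plus strand: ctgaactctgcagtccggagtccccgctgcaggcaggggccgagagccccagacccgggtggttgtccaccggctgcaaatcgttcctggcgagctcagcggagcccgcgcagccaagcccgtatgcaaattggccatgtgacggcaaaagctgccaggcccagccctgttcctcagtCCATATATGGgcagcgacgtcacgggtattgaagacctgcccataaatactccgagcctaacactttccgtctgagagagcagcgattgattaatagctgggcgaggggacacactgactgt
Fos, chr12:85473640-85473939, plus strand: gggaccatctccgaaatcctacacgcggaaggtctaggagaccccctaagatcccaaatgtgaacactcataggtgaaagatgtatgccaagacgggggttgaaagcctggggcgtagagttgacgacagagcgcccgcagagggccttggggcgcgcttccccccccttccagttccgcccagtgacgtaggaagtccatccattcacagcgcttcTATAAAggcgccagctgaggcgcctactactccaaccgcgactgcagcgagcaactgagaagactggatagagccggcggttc
Jun, chr4:95052173-95052472, minus strand: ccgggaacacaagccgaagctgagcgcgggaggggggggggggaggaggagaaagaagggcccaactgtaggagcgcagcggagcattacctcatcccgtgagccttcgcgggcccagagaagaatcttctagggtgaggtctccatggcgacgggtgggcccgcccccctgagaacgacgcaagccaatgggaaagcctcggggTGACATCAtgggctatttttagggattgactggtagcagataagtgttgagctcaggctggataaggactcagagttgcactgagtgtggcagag

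A CArG box was found in 4 of the 5 Egr2 windows, against 1.63% of the 32817 windows in the table. It began 72 bases before the start in both windows printed above, with the letters CCTTTTTTGG in the first and CCATATATGG in the second. In the Jun window TGACATCA began 45 bases before the start (3.62% of all windows hold it), and in the Fos window TATAAA began 33 bases before the start (13.6% of all windows). No window of the 8 genes held an exact match to the cAMP response element, the AP-1 site or the EGR site, which 1.79%, 5.2% and 0.612% of all windows held. These matches describe the letters only. Each window reaches 250 bases before its start, so elements farther upstream, of Fos or of any other gene, could not be seen. The lack of a match in a window therefore does not mean that the gene lacks the element. Windows of 1 gene that overlap share their match, so the 4 Egr2 windows are not independent.

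The arrays gave a single-colour intensity for each probe. All values below are log2 intensities with the median of the same array's valid probes subtracted, so that 1 unit is a 2-fold change and 0 is the array's median, and the level of a probe is compared between stages and never with another probe. Between 18368 and 24496 gene probes were well above background per array, the highest number being that of C1 replicate 4. In bulk RNA, fewer cells of a type and less RNA per cell cannot be told apart. All 11 listed granulosa and cumulus markers were well above background at every stage. From C1 to C2, 10 of 11 were lower (limma adjusted p under 0.01), against 22.2% of all valid probes. The exception was Foxl2 (0.03, adjusted p = 0.908), whose other valid probe did pass that threshold. Markers of other cells moved too. The log2 of the summed linear signals of 7 theca and stroma genes, in which the brightest genes weigh most, ran from 3.48 to 5.73 at NC1, from 3.31 to 4.04 at C1 and from -1.01 to -0.46 at C2. For 11 oocyte genes it ran from 3.87 to 5.81 at NC1, from 3.87 to 5.49 at C1 and 3.68 to 3.92 in C2 replicates 1, 2 and 3, but -0.50 and -0.33 in C2 replicates 4 and 5. For 6 oviduct genes it ran from 1.90 to 2.25 at NC1, from 2.09 to 2.72 at C1 and from 3.32 to 4.20 at C2, and its members parted between C1 and C2, where Krt8 rose by 1.30 while Epcam fell by 1.05 and Tppp3 by 1.01 (limma adjusted p = 2.04e-07, 0.000937 and 0.00246) and Ovgp1 differed by 2.28 (adjusted p = 0.0343). For 6 endothelium genes the log2 of the summed signals ran from -0.58 to -0.12 at NC1, from -0.32 to 0.08 at C1 and from -0.03 to 0.79 at C2. Of the 2 valid endothelium genes, 1 was called higher at C2 than at C1, against 25.4% of all valid probes. For 6 red blood cell genes the log2 of the summed signals was 6.14 to 8.69 at NC1 against 3.35 to 5.40 at C1. For 7 leukocyte genes it lay between 1.63 and 2.60 at every stage, but single members differed between stages. Csf1r was 1.23 higher at C2 than at NC1 (adjusted p = 0.000596), and the mean of Lyz2 was -4.53 at NC1 and -2.90 at C2 and that of Adgre1 -4.60 and -2.99, on probes that were not valid and not tested. Their part in the results below was not tested, except where values without C2 replicates 1, 2 and 3 are given.

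Over the 3 stages, 6 of the 10 valid probes differed in the moderated F-test of limma (adjusted p under 0.01), against 51.5% of all valid probes. These were the Fos, Junb, Atf3 and Egr2 probes and both Fosl2 probes. The adjusted p of this F-test was 0.0106 for Jun, 0.012 for Fosb, 0.0507 for Jund and 0.682 for Egr1. Between NC1 and C1, Atf3 rose and no other probe was called, so that 1 of 10 was called against 2.52% of all (1.75% higher and 0.768% lower). Between C1 and C2, 7 of 10 were called, against 47.6% of all. Egr2 and both Fosl2 probes rose (3 of 10, against 25.4%), whereas Fos, Fosb, Jun and Atf3 fell (4 of 10, against 22.2%). Between NC1 and C2, 5 of 10 were called against 51.5%, of which Fos fell (1 of 10, against 24.9%) and Egr2, both Fosl2 probes and Junb rose (4 of 10, against 26.5%). Over so few probes these shares do not set the genes apart from the rest. The median absolute log2 change was 1.30 for the set against 0.47 for all valid probes between C1 and C2, and 0.36 against 0.14 between NC1 and C1. The groups of arrays did not overlap for 5 of 10 probes between C1 and C2 (43.9% of all), for 5 between NC1 and C2 (48.9% of all) and for 1 of 10 between NC1 and C1 (5.97% of all).

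**Figure D1:**
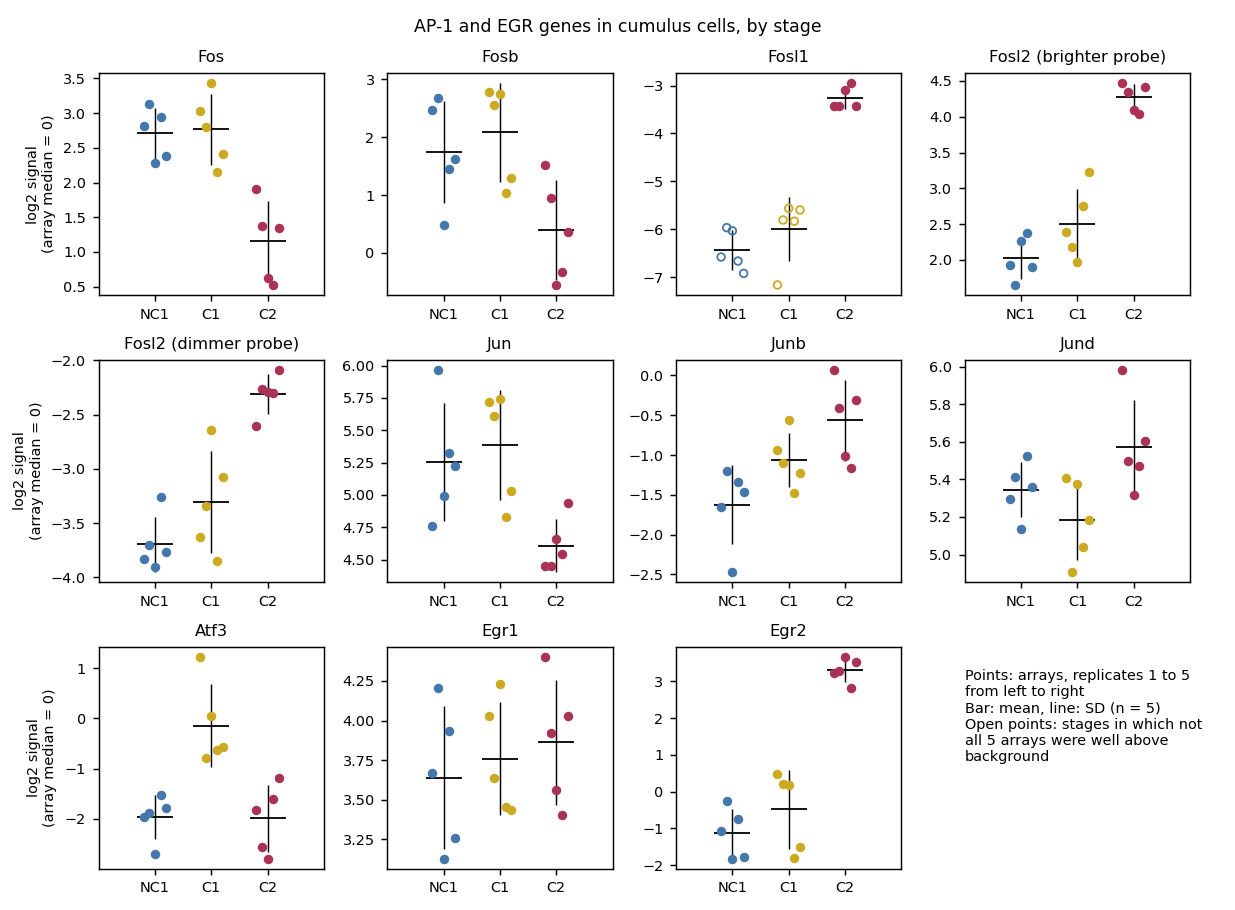
Log2 signal of the 11 probes (vertical axis, array median of the valid probes at 0) in the 15 arrays, by stage (horizontal axis). Points are arrays in the order of replicates 1 to 5, bars are means and lines are SD (n = 5), and open points mark stages in which not all 5 arrays were well above background. Fos, Fosb, Jun and Atf3 are lowest or back at their NC1 level at C2, Fosl1, Fosl2 and Egr2 are highest at C2, and the Egr1 groups overlap.

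Among the FOS proteins, Fos and Fosb fell at C2 whereas Fosl2 rose. Fos, the prototype of the family, had log2 signals of 2.81, 3.13, 2.28, 2.94 and 2.37 at NC1, of 3.04, 2.81, 3.43, 2.15 and 2.41 at C1, and of 1.90, 1.38, 0.63, 0.52 and 1.35 at C2. Every C2 array was below every array of the other stages, while NC1 and C1 overlapped. Fos fell by 1.61 on the log2 scale from C1 to C2 (3.05-fold lower, SE 0.277, adjusted p = 9.81e-05 in limma) and by 1.55 from NC1 to C2 (SE 0.277, adjusted p = 0.000123). From NC1 to C1 it differed by 0.06 (95% interval -0.53 to 0.64, adjusted p = 0.957). Within the 4 slides, each of which held arrays of all 3 stages, the C2 minus C1 difference ran from -1.78 to -1.20, and without C2 replicates 1, 2 and 3 it was -1.83 (adjusted p = 0.000538).

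Fosb, a paralogue of Fos with the same kind of partners, was the most variable probe of the set. Its log2 signals were 2.48, 2.68, 0.49, 1.46 and 1.62 at NC1, 2.79, 2.55, 2.75, 1.03 and 1.29 at C1, and 1.53, 0.94, -0.55, -0.32 and 0.36 at C2. The C2 arrays lay lower as a group, yet C2 replicate 1 was above C1 replicates 4 and 5, so the groups overlapped. Fosb fell by 1.69 from C1 to C2 (3.23-fold lower, SE 0.477, limma adjusted p = 0.00597). This call was lost in 10 of 34 alternatives, among them those with slide as a block (-1.46, adjusted p = 0.0107), without C2 replicates 1, 2 and 3 (-2.06, adjusted p = 0.0103), without C1 replicate 1, 2 or 3 and without C2 replicate 3, 4 or 5. From NC1 to C2 the difference was -1.35 (adjusted p = 0.0211) and from NC1 to C1 it was 0.34 (adjusted p = 0.802).

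Fosl2 encodes FRA-2, a FOS protein that lacks the strong activation domain of FOS, and its probes differed in brightness. On the brighter probe the log2 signals were 1.94, 1.65, 2.27, 2.37 and 1.89 at NC1, 2.39, 2.19, 1.97, 2.75 and 3.22 at C1, and 4.47, 4.34, 4.09, 4.04 and 4.41 at C2. All C2 arrays were above all others and spanned only 0.43. Fosl2 rose by 1.76 from C1 to C2 on this probe (3.40-fold, SE 0.203, limma adjusted p = 1.39e-06) and by 2.24 from NC1 to C2 (4.74-fold, adjusted p = 6.45e-08), with 0.48 from NC1 to C1 (adjusted p = 0.233). The dimmer probe ranged from -3.91 to -3.26 at NC1, from -3.85 to -2.64 at C1 and from -2.61 to -2.09 at C2. It rose by less, with 1.00 from C1 to C2 (SE 0.192, adjusted p = 0.000293) and 1.38 from NC1 to C2 (adjusted p = 9.12e-06), and its groups were also apart. Within slides the C2 minus C1 difference ran from 0.87 to 2.49 on the brighter probe and from 0.04 to 1.57 on the dimmer probe.

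Fosl1, which encodes the related FRA-1, was well above background in none of the NC1 arrays, in C1 replicate 4 only and in all 5 C2 arrays. Its C2 log2 signals were -3.43, -3.44, -3.10, -2.95 and -3.43. The NC1 level was below background, so only a bound can be given, and C2 was at least 2.75-fold higher than NC1. The bound takes, for each NC1 array, the probe's own signal or the dimmest signal of any probe well above background, whichever was higher, and it was 0.92 in place of 1.46 on the log2 scale with normexp background correction. No test is given for Fosl1, which could pass a filter on dim probes only through the stage in which it was high.

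Among the JUN proteins only Jun fell and only Junb rose past the threshold, each in a different comparison. Jun, the main partner of FOS, had log2 signals of 4.76, 5.96, 4.99, 5.33 and 5.22 at NC1, of 5.72, 5.61, 5.74, 4.83 and 5.03 at C1, and of 4.45, 4.45, 4.66, 4.54 and 4.94 at C2. The C2 arrays spanned 0.49 and C2 replicate 5 was above the lowest array of both other stages. Jun fell by 0.78 from C1 to C2 (1.71-fold lower, SE 0.218, limma adjusted p = 0.00572). This call missed the threshold in 15 of 34 alternatives. The change was -0.70 (adjusted p = 0.0148) with slide as a block, -0.64 (adjusted p = 0.106) without C2 replicates 1, 2 and 3, and -0.47 (adjusted p = 0.0733) when arrays were scaled by the median of all gene probes, and the threshold was also missed without C1 replicate 1, 2 or 3 and without C2 replicate 1, 2, 3 or 4. From NC1 to C2 the difference was -0.65 (adjusted p = 0.0164).

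Junb, a JUN protein that is a weaker activator than JUN, had log2 signals of -1.65, -1.20, -2.47, -1.33 and -1.46 at NC1, of -0.93, -1.10, -0.57, -1.47 and -1.23 at C1, and of 0.07, -0.41, -1.02, -1.16 and -0.31 at C2. C1 lay between the other stages and overlapped both, and C2 and NC1 did not overlap. The steps were 0.56 (limma adjusted p = 0.284) and 0.50 (adjusted p = 0.113), neither past the threshold, but the second was called when arrays were scaled by the median of all gene probes (0.80, adjusted p = 0.00793) and in the authors' table (0.80, adjusted p = 0.008). Over both, Junb rose by 1.06 from NC1 to C2 (2.08-fold, SE 0.259, adjusted p = 0.00199), and this was 0.89 (adjusted p = 0.0359) without C2 replicates 1, 2 and 3. Its C2 minus NC1 difference was 0.18 to 1.68 within slides. In a limma fit with a slide term, Junb was the only 1 of the 10 probes with an unadjusted p under 0.05 for slide, against 3.1% of all valid probes, and none passed the adjusted threshold (0.997 for Junb).

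Jund, which is less inducible than the other JUN genes, ranged from 5.13 to 5.53 at NC1, from 4.91 to 5.41 at C1 and from 5.31 to 5.98 at C2. No comparison was called (C2 minus C1 0.39, 95% interval 0.11 to 0.67, limma adjusted p = 0.0191). C2 minus C1 was called when arrays were scaled by the median of all gene probes (0.70, limma adjusted p = 0.00463). It was also called in the authors' table (0.70, adjusted p = 0.00467). Both moved the median of all valid probes at this step from 0.02 to 0.33.

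Atf3, a stress-inducible gene whose protein mostly represses transcription as a homodimer, was highest at C1. Its log2 signals were -1.96, -1.89, -2.70, -1.53 and -1.78 at NC1, 1.22, -0.79, 0.05, -0.62 and -0.58 at C1, and -1.82, -2.55, -2.79, -1.60 and -1.18 at C2. Every C1 array was above every array of the other stages, which overlapped each other. Atf3 rose by 1.83 from NC1 to C1 (3.55-fold, SE 0.369, limma adjusted p = 0.00647) and fell by 1.85 from C1 to C2 (3.59-fold lower, SE 0.369, adjusted p = 0.000405), and C2 minus NC1 was -0.02 (95% interval -0.80 to 0.76). The change of the second step minus that of the first was -3.67 (adjusted p = 0.000352). C1 replicate 1 was the highest array, and without it the rise was 1.49 (adjusted p = 0.0114). The rise also missed the threshold without NC1 replicate 1, 2, 3 or 5 or C1 replicate 3, whereas it ran from 1.31 to 2.18 within the 4 slides. Without C2 replicates 1, 2 and 3 the fall was -1.25 (adjusted p = 0.035).

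The EGR genes parted at C2. Egr2, known from hindbrain and Schwann cell development and also an immediate early gene, had log2 signals of -1.08, -0.25, -1.83, -0.76 and -1.79 at NC1, of 0.49, 0.21, 0.18, -1.81 and -1.50 at C1, and of 3.24, 3.29, 3.66, 2.81 and 3.53 at C2. The lowest C2 array lay far above the highest array of the other stages, and at C1 replicates 1, 2 and 3 stood apart from replicates 4 and 5. Egr2 rose by 3.79 from C1 to C2 (13.8-fold, SE 0.42, limma adjusted p = 9e-07) and by 4.45 from NC1 to C2 (21.8-fold, adjusted p = 1.07e-07), with 0.66 from NC1 to C1 (adjusted p = 0.483). Only 0.537% of the valid probes changed by more between C1 and C2. Within slides the C2 minus C1 difference ran from 3.06 to 5.16, and without C2 replicates 1, 2 and 3 it was 3.65 (adjusted p = 0.000263). The second step exceeded the first by 3.14 (adjusted p = 0.00326). That call was lost in 5 of 33 alternatives, which were those without C1 replicate 4 (2.48, adjusted p = 0.0104), without C1 replicate 5 (2.63, adjusted p = 0.0126), without C2 replicates 1, 2 and 3 (3.00, adjusted p = 0.0223), without the filter on dim probes and with the methods' one-factor test.

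Egr1, the most studied EGR gene and a known regulator of Lhb in the pituitary, had log2 signals of 3.67, 4.20, 3.13, 3.94 and 3.26 at NC1, of 4.03, 3.64, 4.23, 3.46 and 3.43 at C1, and of 4.40, 3.92, 3.56, 3.40 and 4.03 at C2. The stages overlapped throughout. The differences were 0.12 from NC1 to C1 (95% interval -0.37 to 0.61), 0.10 from C1 to C2 (-0.38 to 0.59) and 0.22 from NC1 to C2 (-0.26 to 0.71), and the F-test over the stages gave an adjusted p of 0.682 in limma.

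**Figure D2:**
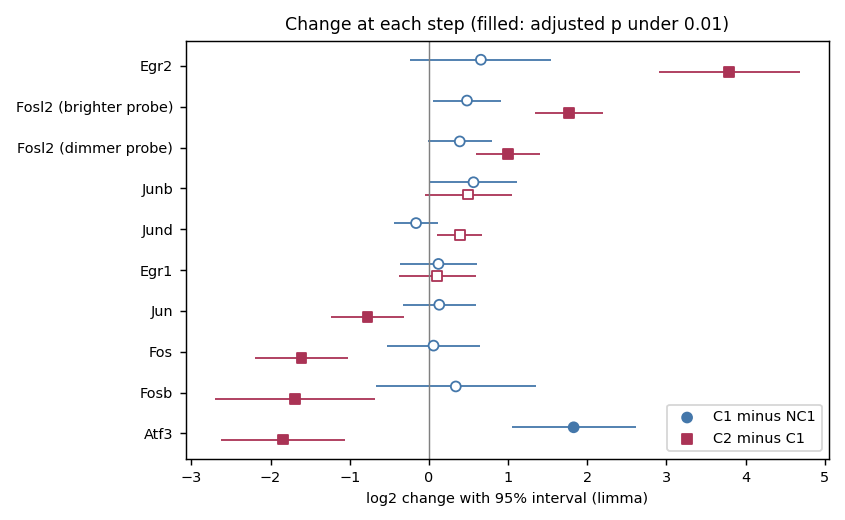
Log2 change of the 10 valid probes (horizontal axis, with the 95% interval of limma) from NC1 to C1 (circles) and from C1 to C2 (squares), with filled symbols for adjusted p under 0.01. Atf3 is the only filled circle, at 1.83, and the filled squares run from -1.85 for Atf3 to 3.79 for Egr2.

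The change from NC1 to C1 and that from C1 to C2 share the C1 arrays. Their difference was called for 3 of 10 probes, Atf3, Egr2 and the brighter Fosl2 probe, against 22.3% of all valid probes (12.3% higher, as Egr2 and Fosl2 were, and 9.96% lower, as Atf3 was). For Fosl2 it was 0.61 on the dimmer probe (limma adjusted p = 0.177) and 1.28 on the brighter probe (adjusted p = 0.00963). The call on the brighter probe was lost in 25 of 33 alternatives. Among these were slide as a block (1.23, adjusted p = 0.0281), spike-in scaling (1.03, adjusted p = 0.249) and the omission of any 1 array other than NC1 replicate 2 or C1 replicate 5 (1.02 to 1.41). For Fos it was -1.67 (adjusted p = 0.0128).

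Arrays of 1 stage differed from each other more for these genes than for most. The SD between arrays of a stage, pooled over the 3 stages, had a median of 0.43 over the 10 probes and of 0.234 over all valid probes, and 9 of the 10 were above the latter. Stage by stage, the median SD of the set was 0.444 (NC1), 0.482 (C1) and 0.361 (C2), and that of all valid probes 0.211, 0.232 and 0.202. Fosb had the largest pooled SD (0.865, above 99.5% of the valid probes), followed by Egr2 (0.759), Atf3 (0.664) and Fos (0.49), and Jund the smallest (0.208, above 39.3%). The spread of Egr2 was 1.08 at C1 and 0.328 at C2, and that of Jun was 0.426 at C1 and 0.202 at C2, whereas Fosb varied alike at every stage (0.85 to 0.879). These are descriptions with 5 arrays a stage, and no test of the spread was made.

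The same arrays were high or low for several of the genes. At NC1, replicate 2 was the highest array for 6 of the 10 probes and replicate 3 the lowest for 8, with median deviations from the stage mean of 0.43 and -0.47. At C1, replicate 3 was highest for 5 (0.48) and replicate 4 lowest for 6 (-0.51), and at C2 replicate 1 was highest for 6 (0.30) and replicate 4 lowest for 5 (-0.34). Over all valid probes, the median deviation of any array stayed between -0.04 and 0.05. The Fosl2 probes differed at C1, where the brighter was lowest in replicate 3 (-0.53) and highest in replicate 5 (0.72), and the dimmer was highest in replicate 3 (0.66) and lowest in replicate 4 (-0.54). NC1 replicate 3, C1 replicate 4 and C2 replicates 2 and 4 shared slide 3, and C2 replicate 2 deviated by 0.05. Without C1 replicate 4, 7 of 10 probes were again called between C1 and C2, 8 in place of 6 over the 3 stages, and 2 in place of 3 for the difference of the steps. A slide term fitted beside the stages passed the adjusted threshold for none of the 17324 valid probes (limma F-test). Its unadjusted p was under 0.05 for 1 of the 10 probes, Junb, against 3.1% of all valid probes. The part of the handling of each pool or of its cells in this spread was not tested.

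**Figure D3:**
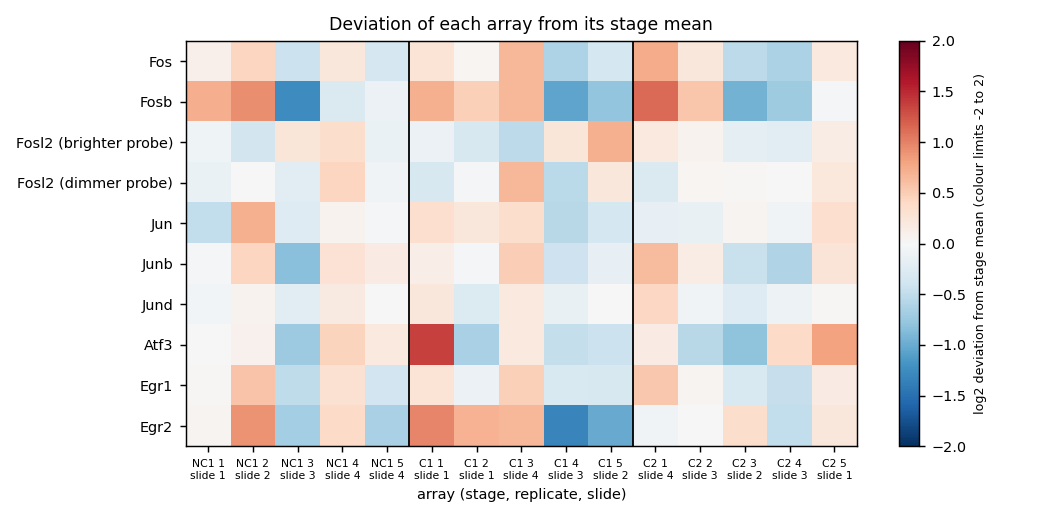
Deviation of each array from the mean of its stage (colour, log2, limits -2 to 2) for the 10 valid probes (rows) and the 15 arrays (columns, with stage, replicate and slide). NC1 replicate 3 and C1 replicate 4 are below their stage mean for 9 of 10 probes each, and NC1 replicate 4, C1 replicate 3 and C2 replicate 5 are above it for 9 of 10 each.

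A list of 32 other immediate early genes, 30 with a valid probe, varied between arrays like the members. The median pooled SD was 0.427, 29 of 30 were above the median of all valid probes and 15 were among the most variable 10% of them. For this list too NC1 replicate 2 was mostly high (22 of 30 genes above the stage mean) and NC1 replicate 3 mostly low (20 of 30 below). At C1, replicates 1 and 3 were above the stage mean for 24 and 25 genes and replicate 5 below it for 25, and at C2 replicates 1 and 5 were above it for 20 and 24. C1 replicate 4, the lowest array for 6 of the 10 member probes, did not stand out as clearly in this list. There it was above the stage mean for 13 genes and below it for 17, with a median deviation of -0.11. Heat shock genes, which handling and heat are known to induce, had their highest median deviation in NC1 replicate 4 (0.41, with 0.29 for the members) and their lowest in C1 replicate 2 (-0.45, with -0.04 for the members), and at C1 replicate 4 they were at 0.26 and the members at -0.51. The orders were not compared by a test. The 21 valid genes for upstream kinases and SRF varied little (median pooled SD 0.203).

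The other immediate early genes moved both ways. From C1 to C2, 14 of 30 rose and 5 fell (median 0.57, against 0.02 over all valid probes, of which 25.4% rose and 22.2% fell), and 8 rose and 2 fell without C2 replicates 1, 2 and 3. Ier3, an inhibitor of apoptosis, rose by 4.26 (limma adjusted p = 2.93e-11), Sgk1, a kinase induced by serum and glucocorticoids, by 2.90 (adjusted p = 5.19e-10), Trib1, a pseudokinase, by 2.36 (adjusted p = 1.63e-07) and Errfi1, an inhibitor of the EGF receptor, by 2.02 (adjusted p = 0.000138). Nr4a2, an orphan nuclear receptor, rose by 1.80 (adjusted p = 6.44e-07), and Ccn1, a matricellular protein, fell by 2.05 (adjusted p = 4.99e-06). From NC1 to C1, 3 of 30 rose and 1 fell (1.75% and 0.768% of all). Sgk1 rose by 2.57 (adjusted p = 8.84e-08), Dusp1, a phosphatase of MAP kinases, by 1.26 (adjusted p = 0.00952) and Trib1 by 1.26 (adjusted p = 0.00244, not called on its other probe), and Npas4 fell by 1.17 (adjusted p = 0.0014). The Dusp1 call was lost in 19 of 34 alternatives (adjusted p up to 0.0401), among them the omission of any 1 array other than NC1 replicate 4 or C1 replicate 4, and that of Trib1 in 5. Without the filter on dim probes, with the methods' one-factor test or with only the arrays of the groups compared, 1 gene of the list rose.

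Of the genes for other bZIP proteins, which can pair with FOS or JUN or share their sites, 8 of 14 valid genes rose from C1 to C2, none fell and 6 were not called (median 0.51, against 0.02 over all valid probes, of which 25.4% rose and 22.2% fell). Atf1 and Atf2, counted as higher, were called differently on another valid probe. The number that rose was 4 to 11 over the alternatives, with 5 under spike-in scaling. Among those not called were Mafk (-0.38, limma adjusted p = 0.0999), Jdp2 (-0.09) and Batf2 (-0.03). From NC1 to C1 none of the 14 was called in limma. At the second step, C1 to C2, Maf, a large MAF protein, rose by 2.97 (limma adjusted p = 5.09e-08), Atf5 by 1.78 (adjusted p = 1.61e-06), the small MAF gene Maff by 1.58 (adjusted p = 6.95e-05) and Mafg by 0.91 (adjusted p = 2e-05). Crem, whose products include the cAMP-induced repressor ICER, rose by 1.58 (adjusted p = 5.96e-07), and Atf4 of the integrated stress response by 0.72 (adjusted p = 3.76e-05). 

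Both EGR corepressor genes rose with Egr2. From C1 to C2, Nab1 rose by 2.10 (limma adjusted p = 2.78e-06) and Nab2, itself a known EGR target, by 2.01 (adjusted p = 2.13e-06), and neither was called from NC1 to C1 (-0.03 and -0.16). Egr3 was not well above background on any array. Egr4 was so in all 5 arrays of NC1 and of C1 and in 1 C2 array, and was not tested.

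Upstream of these genes, 9 of 21 valid genes of the list of kinases and SRF rose and 3 fell from C1 to C2 (median 0.16, against 0.02 over all valid probes, of which 25.4% rose and 22.2% fell). Map2k4, counted as higher, and Mapk9, counted as lower, were among those called differently on another valid probe. Mrtfa, a coactivator of SRF, rose by 1.17 (limma adjusted p = 1.62e-08), Rps6ka1, a ribosomal S6 kinase, by 1.15 (adjusted p = 5.63e-07) and Map2k1, which encodes the kinase MEK1, by 0.81 (adjusted p = 0.000105). Mapk10, which encodes the JNK3 kinase of JUN, fell by 2.54 (adjusted p = 7.94e-10), and Rps6ka5 by 0.86 (adjusted p = 0.000135). Srf itself rose by 0.78 (adjusted p = 0.00375). From NC1 to C1, 2 of 21 fell, against 0.768% of all valid probes. Mapk10 fell by 1.14 (limma adjusted p = 0.000191) and Elk3, a ternary complex factor, by 0.68 (adjusted p = 0.00645, with another of its probes called differently). The Elk3 call was lost in 20 of 34 alternatives (adjusted p up to 0.686 with spike-in scaling), among them the omission of NC1 replicate 3, 4 or 5, of any 1 of the C1 arrays and of C2 replicate 2 or 5. When arrays were scaled by spike-in probes, 2 of 21 rose from C1 to C2 in place of 9.

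Of 20 listed targets of AP-1 and EGR factors, 14 had a valid probe, and these mostly rose. The list was chosen with earlier results of these data known. From C1 to C2, 9 of 14 valid genes rose and 1 fell (median 1.60, against 0.02 over all valid probes, of which 25.4% rose and 22.2% fell), and from NC1 to C1, 3 rose and none fell (1.75% and 0.768% of all). At the second step, C1 to C2, the rise was 7.30 for Spp1, which encodes osteopontin (limma adjusted p = 3.6e-12). It was 3.45 for Cdkn1a, the cell cycle inhibitor p21 (adjusted p = 1.97e-11), and 3.28 for Plaur, the urokinase receptor (adjusted p = 7.35e-07). Timp1, an inhibitor of matrix metalloproteinases, rose by 3.26 at this second step (adjusted p = 3.54e-11) and Tgfb1 by 2.26 (adjusted p = 1.59e-09). Nab2 is in this list as well. Il6 was well above background in no NC1 array, in 1 C1 array and in all 5 C2 arrays, and was at least 6.32-fold higher at C2 than at NC1. From NC1 to C1, Cdkn1a rose by 1.28 (adjusted p = 4.58e-05), Timp1 by 1.17 (adjusted p = 0.000111) and Vegfa by 0.97 (adjusted p = 0.00235, lost in 6 of 34 alternatives). These targets have other regulators, so their change is not a readout of AP-1 or EGR activity.

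Of 7 heat shock genes, 3 fell from C1 to C2 (22.2% of all valid probes fell) and none was called from NC1 to C1. Hspa1a fell by 2.07 (limma adjusted p = 0.00634), Hsph1 by 0.88 (adjusted p = 0.0049) and Hsp90aa1 by 0.58 (adjusted p = 0.00853). The count was 0 to 3 when 1 array was left out. It was 0 without C1 replicate 4 or 5 or C2 replicate 4 or 5, and 1 without C1 replicate 1 or C2 replicate 2 or 3. It was also 0 when arrays were scaled by the median of all gene probes, in the authors' table, without the filter on dim probes, with the methods' one-factor test and without C2 replicates 1, 2 and 3. Whether the levels of the members followed the handling of the complexes was not tested.

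**Figure D4:**
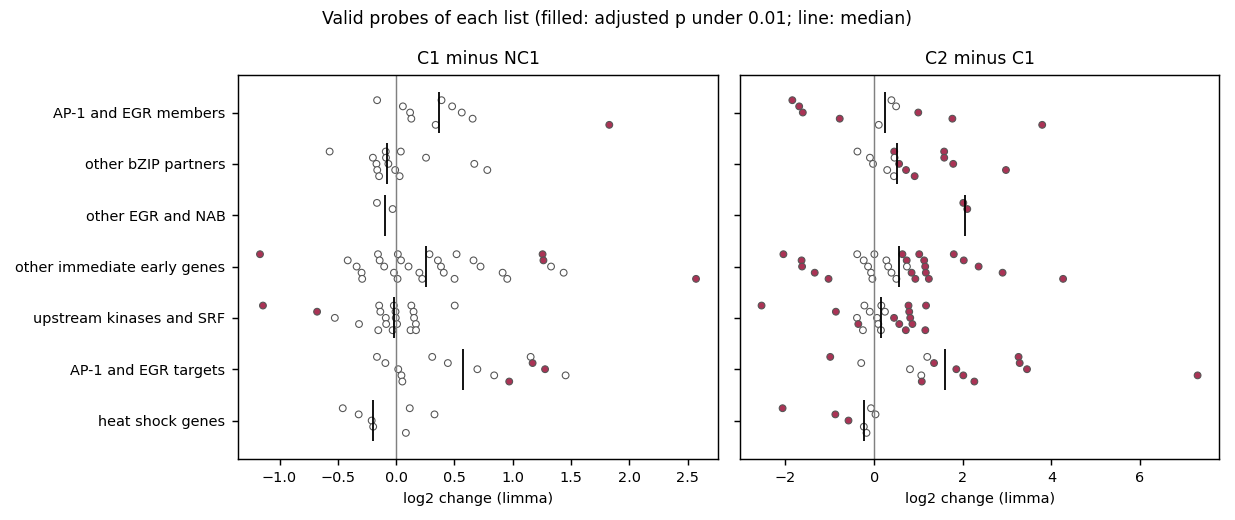
Log2 change (horizontal axis, limma) of the 10 valid probes of the set and of 1 valid probe for each gene of 6 lists (rows), from NC1 to C1 (left) and from C1 to C2 (right), with filled points for adjusted p under 0.01 and a line at each median. The bZIP partners and the targets lie mostly to the right of 0 at the second step, with medians of 0.51 and 1.60, and the set itself lies on both sides, with a median of 0.25.

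Over all 15 arrays, the genes whose profiles lay nearest to those of Fos, Egr1 and Atf3 were found by the root mean square (RMS) difference of mean-centred log2 values, over 17305 valid probes with no missing value. Nearest to Fos were Sclt1 (0.34), BC021767, Pola1, Ube2t and Macrod2 (0.35), where the RMS of Fos around its own mean was 0.86. Nearest to Egr1 were Pnrc1 (0.24), Rhob (0.25), Mtmr14, AW061147 and Ppm1h (0.28), against 0.37 for Egr1 itself. Rhob, a small GTPase, is also in the list of other immediate early genes, and was not called in any comparison. Nearest to Atf3 were Tgtp2 (0.51), Mapt, Chst1, Tmem178 and Gstm7 (0.63), against 1.05. The match was thus closest in relative terms for Fos, and the arrays share their slides and scaling.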

How the data were processed

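Gene expression in mouse cumulus cells was measured on Agilent single-colour (Cy3) arrays, 15 arrays in 3 stages of 5, grouped by the labels, where each array is a pool of several mice, so that p-values measure the spread between pools. The authors deposited the scanner output of Feature Extraction (version 10.5.1.1 per the labels and 10.7.1.1 per the headers), whose processed signal is a linear intensity with background removed. A second file by the authors holds log2 values for 20855 gene probes, each array shifted by a constant, and served for the list of probes and as an alternative.

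Spots of a probe were averaged, with non-uniform and population outlier spots left out, log2 was taken, and each array was centred on the median of its 17324 valid probes. No gene spot was saturated. Valid probes had 20 missing values, none on the probes of the set. Stages were compared with limma 3.58.1 in R 4.3.3, in 1 model over 15 arrays, with moderated variances and the Benjamini-Hochberg adjustment over all valid probes at 0.01, two-sided. The fits were tested on simulated data. Genes were named through RefSeq (GRCm38.p6) or, where that gave none, the authors' table. The number of arrays limits the precision.

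The 10 genes and all lists were chosen with earlier results of these data known. All probes of the set are named. In each list, up to 6 called genes per comparison are named, by the size of the change, on the valid probe with the highest mean. Srf was named after its values were seen, and 1 gene of the kinase list is not reported here. The alternatives were other scalings, filters, tests, thresholds and blocks, and arrays left out. Deviations of same-numbered arrays correlated by 0.06 to 0.35 between NC1 and C1 and by -0.24 to 0.21 in the pairs with C2. As not every pair exceeded 0.1, replicate numbers were not taken as pairs. The slide, which is also the scan, held all 3 stages on each of 4 slides.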

Additional observations from a re-analysis of the deposited data

Results flagged for a closer look

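Of 33 groups of 5 arrays (11 probes at 3 stages), 1 held an array far from the others by Dixon's criterion at 95%, which chance alone gives in about 1 of 20 groups. For Fosl1 at C1, replicate 1 had a log2 signal of -7.17, the lowest of the 5. That array was not well above background for this probe, so the value carries no level, and the bound given for Fosl1 at C2 against NC1 does not use it.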

How the results depend on the processing

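Over 34 alternatives, 1224 of the members' changes kept their direction and side of the threshold, 67 fell below it, 20 passed it and 39 changed sign. Of those that changed sign none was past the threshold in the main fit, and the cause was not tested. The count of probes called between NC1 and C1 was 1 (Atf3), and it was 0 without the filter on dim probes, with the methods' one-factor test and with only the arrays of the groups compared, and 0 to 1 when 1 array was left out. Between C1 and C2, 7 were called, 4 without C2 replicates 1, 2 and 3 and 5 to 7 with 1 array left out. The difference of the steps was called for 3, for 1 with the one-factor test and for 1 without C2 replicates 1, 2 and 3. The log2 bound for Fosl1 was 1.46, and 0.92 with normexp. Fos from NC1 to C1 (0.06) was -0.049 with scaling by the median of all gene probes and -0.049 with the authors' table, and -0.11 to 0.21 with 1 array left out. The difference of the steps for Junb (-0.07) was 0.35 with that scaling, 0.35 with the authors' table, 0.072 with normexp, 0.0045 with array weights and -0.27 to 0.18 with 1 array left out. Atf3 from NC1 to C2 (-0.02) was 0.18 with that scaling, 0.18 with the authors' table, 0.079 with quantile normalization, 0.11 with slide as a block, 0.58 without C2 replicates 1, 2 and 3 and -0.22 to 0.18 with 1 array left out. Egr1 from C1 to C2 (0.10) was -0.057 with quantile normalization, -0.018 with spike-in scaling, -0.044 without C2 replicates 1, 2 and 3 and -0.030 to 0.22 with 1 array left out, and from NC1 to C1 it was -0.0084 to 0.26 with 1 array left out. Its difference of the steps (-0.02) was 0.020 with the 75th percentile, 0.40 with the median of all gene probes, 0.40 with the authors' table, 0.036 with slide as a block and -0.18 to 0.22 with 1 array left out. With the replicate number as a block, 6 probes were called from C1 to C2, without Jun (adjusted p = 0.0105 in limma), 6 from NC1 to C2, with Fosb (adjusted p = 0.00297), and 2 for the difference of the steps, without Fosl2 (adjusted p = 0.0135). No other call of the members changed under this block. Of all valid probes, 437 were called between NC1 and C1, and 271, 278 and 272 with scaling by the median of all gene probes, with spike-in scaling and with the authors' table. Spike-in scaling gave 5351 in place of 8930 over the stages, 4657 in place of 8253 between C1 and C2, 5440 in place of 8916 between NC1 and C2, and 1224 in place of 3859 for the difference of the steps. Below background no level can be seen, which limits Fosl1.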

Other observations

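Several genes of the lists could not be tested because they were near background at some stage. Egr4, an EGR factor best known from neurons, had a mean log2 signal of -3.09 at NC1 (range -3.56 to -2.51), of -2.75 at C1 (-3.58 to -0.90) and of -6.40 at C2 (-7.10 to -4.77), and was well above background in 5, 5 and 1 arrays, so that it was seen at the stages where Egr2 was low. Zfp36, which encodes an mRNA-destabilizing protein and is also an immediate early gene, was well above background in 3, 4 and 5 arrays, with means of -4.19, -3.28 and -2.49. Ccnd1, a cyclin and a known AP-1 target, was so in 1, 3 and 0 arrays. Nr4a3, Mmp3 and Mmp13 were not well above background on any array, and Mmp9 was so in 1 C2 array.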
